A study of Mus musculus with 27 samples.

Results

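The genes described here are 10 components of lipopolysaccharide (LPS) sensing and Toll-like receptor (TLR) signalling in mouse splenic B cells. They were taken by gene symbol from the gene count tables: Tlr4, Tlr2, Tlr7, Tlr9, Cd180, Ly86, Ly96, Cd14, Myd88 and Irak3. All 10 were present in both tables, out of 54532 annotated genes. The rule uses gene symbols only. B cells were isolated by magnetic negative selection from the spleens of wild-type C57BL6 mice and cultured for 3 h, and poly(A) RNA was sequenced. In experiment 1 the 5 groups were unstimulated cells (NS), LPS, LPS with disulfiram (DSF, an inhibitor of aldehyde dehydrogenase), IL-4 plus an antibody that ligates CD40 (IL4CD40), and IL4CD40 with DSF, each with 4 libraries. Experiment 2 had 1 library for each of 7 conditions: the same 5 and each stimulus with ibrutinib, an inhibitor of Bruton tyrosine kinase. Both inhibitors were used at 1 µM, cells without an inhibitor received DMSO, and all cells shared the strain, genotype and culture time. The study describes its RNA-seq samples as biologically independent, and the labels do not say whether that means separate animals or separate cultures. The p-values below measure the spread between these libraries.

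TLRs recognise microbial molecules. Bacterial LPS is handed by CD14 to TLR4, which binds it through its extracellular partner MD-2, the product of Ly96. CD180 (RP105) is a TLR-like protein of B cells that lacks a signalling domain of its own, and its partner MD-1, the product of Ly86, is a relative of MD-2. TLR2 recognises bacterial lipoproteins at the cell surface, and TLR7 and TLR9 recognise single-stranded RNA and unmethylated CpG DNA in endosomes. MyD88 is the adaptor shared by most TLRs, and IRAK3 (IRAK-M) is an inhibitory member of the IRAK kinase family. Mouse B cells express TLR4 and CD180 and proliferate in response to LPS, whereas CD40 ligation with IL-4 imitates T-cell help and does not pass through a TLR.

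All 10 genes are protein-coding, and their positions below are those of the deposited tables (mm10). Of the LPS receptor genes, Tlr4 lies at chr4:66827584-66930284 and Ly96 at chr1:16688051-16709611, both on the plus strand, and Cd14 is placed where its values are given. The CD180 pair shares chromosome 13, with Cd180 at chr13:102693558-102739629 and Ly86 at chr13:37345208-37419036, both on the plus strand. The other TLR genes are Tlr2 (chr3:83836272-83841767, minus), Tlr7 (chrX:167304929-167330558, minus) and Tlr9 (chr9:106222598-106226883, plus). Myd88 lies at chr9:119335934-119341411 (minus) and Irak3 at chr10:120141648-120202130 (minus). Cd180, Myd88 and Irak3 overlap genes on the other strand, and whether counting used strand is not given in the sources used here.

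RefSeq promoter windows (GRCm38.p6) were matched for 6 of the 10 genes: Tlr2, Tlr9, Cd180, Ly86, Myd88 and Irak3. The bases before the start of Tlr9 are shown because the DSF effect on this gene differed between the stimuli in experiment 1. That effect also differed for Irak3, whose 250 bases were searched but are not printed. It differed as well for Tlr7 and Cd14, which had no matched window. The bases before Cd180 and Ly86 are shown because their products form a receptor pair whose transcripts moved in opposite directions with LPS in experiment 1. The Ly86 call there was lost in several alternatives. In experiment 2 both were higher with LPS than unstimulated (Cd180 90.28 and 80.45 CPM, Ly86 164.4 and 141.7). Capitals mark matches to the searched letters, and each sequence is printed 5' to 3' on the gene's own strand, from chr9:106222348-106222597, chr13:102693308-102693557 and chr13:37345095-37345207.
Tlr9: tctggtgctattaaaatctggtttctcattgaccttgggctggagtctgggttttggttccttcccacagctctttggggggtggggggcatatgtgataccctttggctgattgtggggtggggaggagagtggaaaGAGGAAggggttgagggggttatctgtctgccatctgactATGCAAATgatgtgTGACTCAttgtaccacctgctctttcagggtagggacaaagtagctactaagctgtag
Cd180: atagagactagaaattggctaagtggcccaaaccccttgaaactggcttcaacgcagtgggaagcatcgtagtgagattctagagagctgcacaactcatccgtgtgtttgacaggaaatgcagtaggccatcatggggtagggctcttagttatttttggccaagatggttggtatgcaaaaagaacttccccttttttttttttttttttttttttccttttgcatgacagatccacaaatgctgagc
Ly86: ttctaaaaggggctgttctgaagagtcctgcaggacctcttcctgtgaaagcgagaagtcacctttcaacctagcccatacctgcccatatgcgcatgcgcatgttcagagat
The 6 letter patterns below were searched on both strands: an interferon-stimulated response element core (GAAA, any 2 bases, GAAA), an NF-kB site (GGG, any 3 bases, TTCC), a PU box (GAGGAA), an AP-1 site (TGANTCA), a pair of heat shock units (GAANNTTC) and an octamer (ATGCAAAT). The Tlr9 window held a PU box at -112, an octamer at -72 and an AP-1 site at -58, counted from -1 at the base before the gene's start. Of 27025 promoter windows of 250 bases, 23.1% held the PU box, 1.61% the octamer and 6.87% the AP-1 letters. The response element core was in 3.04%, the NF-kB letters in 4.6% and the heat shock pair in 6.78%. None of the 6 patterns was found in the printed Cd180 and Ly86 bases or in the Irak3 bases, which says only that these letters are not in those windows. A match is a description of the letters and not a bound site.

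Library totals were 17804851 to 23632992 counts in experiment 1 and 16049295 to 24619776 in experiment 2. The 4 unstimulated libraries did not behave as 1 group: replicates 1 and 2 resembled each other, as did replicates 3 and 4, with correlations of deviations from the group mean of 0.658 and 0.597 within and -0.808 to -0.819 across these pairs. A spread of at least 2-fold was seen for 14.7% of 11459 genes in that group, against 0.649% to 4.1% in the other 4 groups. In 9 of the 10 genes, all but Myd88, the pairs did not overlap, where 73.9% of all genes tested did not. Cd14 was 19.2-fold higher in replicates 1 and 2, whereas Cd180, Tlr7 and Ly86 were 3.39-fold, 3.18-fold and 2.06-fold higher in replicates 3 and 4. The comparisons with unstimulated cells are therefore given below against each pair as well for Cd14, Cd180, Ly86, Tlr7 and Tlr2. The IL4CD40 libraries split into the same pairs to a lesser degree, with correlations of 0.0506 and 0.0316 within and -0.446 to -0.586 across. In the remaining groups all correlations between libraries were -0.188 to -0.419. Comparisons with IL4CD40 cells carry this split. B-cell markers (7 genes) summed to 5647 to 8888 counts scaled to library size (CPM) in unstimulated libraries and 3525 to 4674 in the others. All 12 monocyte and macrophage markers had counts in every group, and their sum was 544 to 669 CPM unstimulated, 123 to 141 with LPS, 139 to 146 with LPS and DSF, 171 to 199 with IL4CD40 and 212 to 291 with IL4CD40 and DSF. The 9 neutrophil markers summed to a mean of 64.5 CPM in unstimulated replicates 1 and 2 and 17.8 in replicates 3 and 4, and to 10.4 to 23.7 elsewhere, with Ly6g at 0 in IL4CD40 with DSF. The 6 dendritic-cell markers summed to 27.97 to 31.66 CPM unstimulated, 59.91 to 65.42 with LPS and 86.12 to 90.9 with LPS and DSF. Their sum was 82.11 to 92.79 CPM with IL4CD40 and 80.06 to 85.16 with IL4CD40 and DSF. T-cell markers summed to 6.083 to 7.166 CPM with LPS and 15.52 to 17.93 with LPS and DSF. With IL4CD40 they summed to 5.78 to 8.71 CPM, and to 13.42 to 14.91 with DSF added. Plasma-cell markers were at 168.3 to 188.5 and 235.0 to 266.9 CPM in the LPS groups, and 147.4 to 164.7 and 212.3 to 233.5 with IL4CD40. NK-cell markers were lower with DSF in LPS cells (4.052 to 4.531 CPM against 5.689 to 6.313) and overlapped with IL4CD40. Monocytes, macrophages and neutrophils also express Tlr4, Tlr2 and Cd14. The part of other cell types in the results was not tested for any of the 10 genes. In bulk RNA, fewer cells of a type and less RNA per cell cannot be told apart.

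Per transcript length (the authors' FPKM, which scale fragments by transcript length and library size), the CD180 pair and Tlr9 led in unstimulated cells and Tlr4 had the lowest mean of the 10 genes in every group. Unstimulated levels were 42.5 ± 26.8 FPKM for Cd180, 40.6 ± 15.9 for Ly86 and 35.8 ± 4.09 for Tlr9 (SD, n = 4), and these 3 overlapped. Myd88, Tlr7, Cd14 and Irak3 followed at 14.4, 14.2, 10.2 and 10.001 FPKM, each overlapping its neighbour in this order, although Myd88 lay above Irak3 in every library. Tlr4 stood at 3.81 ± 0.42 and overlapped Ly96 (2.90 to 5.37 FPKM), and Cd14 fell to 0.872 FPKM in 1 unstimulated library. With LPS the order was Tlr7 (74.6 ± 1.78 FPKM), Ly86 (66.5 ± 2.95), Tlr9 (61.6 ± 1.08), Myd88 (44.9 ± 1.74), Cd14 (24.0 ± 1.98), Cd180 (12.95 ± 0.68), Irak3 (7.19), Tlr2 (6.09), Ly96 (3.95) and Tlr4 (0.69), and no neighbours in this order overlapped. With IL4CD40 the first 4 were Tlr9, Ly86, Myd88 and Tlr7 at 23.7, 21.3, 19.99 and 16.1 FPKM, which overlapped, and Tlr4 was at 0.44. Ly96 held the ninth place in unstimulated, LPS and IL4CD40 cells and the sixth place in both groups with DSF, at 16.6 and 12.3 FPKM. In both of these groups its range overlapped that of Cd180.

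**Figure D1:**
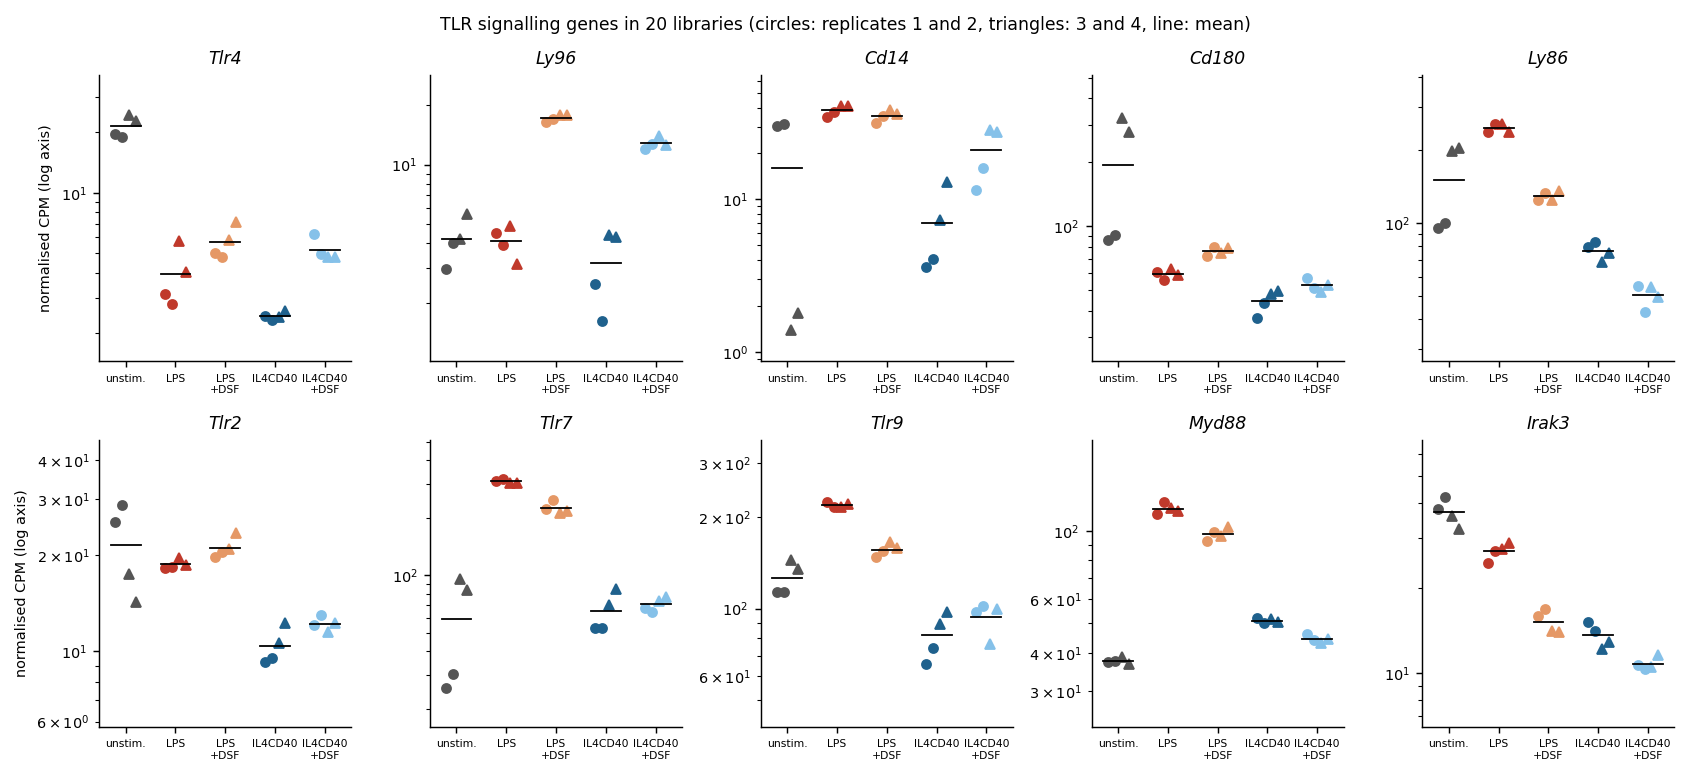
Normalised CPM (log axis) of the 10 genes in the 20 libraries of experiment 1, with 1 point a library (circles for replicates 1 and 2, triangles for 3 and 4) and a line at each group mean. Tlr4 was highest in unstimulated cells and Ly96 was highest in both groups with DSF, while Cd14, Cd180 and Tlr7 split the unstimulated libraries into pairs.

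Tlr4, the signalling subunit of the LPS receptor, was lower after either stimulus. Its level in the unstimulated libraries was 19.6, 19.0, 24.3 and 22.9 CPM (replicates 1 to 4), normalised by the trimmed mean of M-values (TMM). It was 3.13, 2.80, 5.74 and 4.02 CPM with LPS and 2.43, 2.32, 2.40 and 2.57 CPM with IL4CD40. Neither stimulated group overlapped the unstimulated one, and the IL4CD40 libraries all lay under those with LPS. The log2 fold change was -2.46 (SE 0.219, adjusted p = 2.27e-05, edgeR quasi-likelihood test with Benjamini-Hochberg adjustment), a 5.48-fold fall, with LPS, and -3.09 (SE 0.128, adjusted p = 5.47e-07), an 8.51-fold fall, with IL4CD40. With DSF the values were 5.04, 4.80, 5.85 and 7.19 CPM in LPS cells and 6.26, 4.95, 4.79 and 4.80 CPM in IL4CD40 cells. The LPS groups with and without DSF overlapped, whereas all 4 IL4CD40 libraries with DSF lay above all 4 without it. DSF raised Tlr4 in LPS cells (log2 0.57, SE 0.188, adjusted p = 0.00873) and in IL4CD40 cells (log2 1.04, SE 0.14, adjusted p = 6.32e-05), both edgeR. The first call was lost without LPS replicate 2 (adjusted p = 0.0594), by total counts (0.0854) and in replicates 3 and 4 alone (0.0761). Tlr4 rested on 49 to 594 counts a library.

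Ly96, which encodes the LPS-binding partner MD-2, had the largest DSF effect of the 10 genes under both stimuli in experiment 1. It was at 2.97, 4.02, 4.21 and 5.63 CPM in unstimulated cells, 4.52, 3.94, 4.89 and 3.13 CPM with LPS, and 2.48, 1.62, 4.39 and 4.30 CPM with IL4CD40. These 3 groups overlapped, and neither stimulus passed the test against unstimulated cells (log2 fold changes of -0.03 and -0.35, adjusted p = 0.922 and 0.376, edgeR). With DSF it was at 16.4, 17.1, 17.8 and 17.8 CPM in LPS cells and 12.1, 12.7, 14.0 and 12.6 CPM in IL4CD40 cells. All 8 libraries with DSF lay above all 12 without it. The rise was 4.23-fold with LPS (log2 2.08, SE 0.114, adjusted p = 2.4e-14, edgeR) and 3.86-fold with IL4CD40 (log2 1.95, SE 0.240, adjusted p = 3.24e-05). Its difference between the stimuli was 0.12 (SE 0.267, adjusted p = 0.809, edgeR), which does not show that the effects were equal. As a ratio of FPKM values, Ly96 to Tlr4 was 1.06 ± 0.23 in unstimulated cells, 6.10 ± 1.93 with LPS and 7.11 ± 2.91 with IL4CD40 (SD, n = 4). With DSF it was 16.8 ± 2.49 and 13.7 ± 2.29. In experiment 2, with 1 library a condition and no test, this ratio changed little with DSF. It was 6.965 with LPS and 8.099 with LPS and DSF, and 7.618 with IL4CD40 and 8.567 with IL4CD40 and DSF. The unstimulated ratio there was 1.295.

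Cd14 (chr18:36725074-36726736, minus strand), the co-receptor that transfers LPS to MD-2, split the unstimulated libraries. It was at 30.1, 31.3, 1.39 and 1.80 CPM there, 34.6, 37.2, 41.2 and 41.0 CPM with LPS, and 3.58, 4.08, 7.37 and 13.1 CPM with IL4CD40. The LPS libraries all lay above the unstimulated ones, although the test did not pass over the 4 libraries (log2 1.25, SE 0.846, adjusted p = 0.225, edgeR). Against unstimulated replicates 3 and 4 alone the LPS difference was 4.62 (adjusted p = 5.97e-18), and against replicates 1 and 2 it was 0.33 (adjusted p = 0.000494). For IL4CD40 the same subsets gave opposite signs, 2.19 (adjusted p = 0.00582) and -2.12 (adjusted p = 0.00189), against -1.16 over all 4 (adjusted p = 0.307). Marker sums moved with these unstimulated pairs: in replicates 1 and 2 against 3 and 4 the means were 64.5 and 17.8 CPM for neutrophils, 551 and 658 for monocytes and macrophages, 5680 and 8845 for B cells, 17.6 and 11.5 for T cells, 10.8 and 8.13 for NK cells and 2.72 and 14.97 for erythroid cells. Their part was not tested. With DSF, Cd14 was at 31.5, 35.5, 38.3 and 36.1 CPM in LPS cells and 11.6, 15.99, 28.7 and 27.8 CPM in IL4CD40 cells. The first group overlapped LPS alone (log2 -0.10, SE 0.068, adjusted p = 0.171, edgeR). In IL4CD40 cells Cd14 was 2.90-fold higher with DSF (log2 1.54, SE 0.391, adjusted p = 0.0051), with overlap because replicate 4 without DSF lay above replicate 1 with it.

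Cd180, the B-cell receptor related to TLR4, was lower after stimulation. Its unstimulated values were 86.4, 91.0, 323 and 279 CPM, against 60.9, 55.7, 63.2 and 58.6 CPM with LPS and 37.0, 43.6, 47.7 and 49.5 CPM with IL4CD40. The 3 groups did not overlap. The fall was 3.27-fold with LPS (log2 -1.71, SE 0.430, adjusted p = 0.00739, edgeR) and 4.23-fold with IL4CD40 (log2 -2.08, SE 0.434, adjusted p = 0.00262). Its size depended on the unstimulated pair: with LPS it was -2.31 against replicates 3 and 4 and -0.57 against replicates 1 and 2, and with IL4CD40 -2.69 and -0.97. In the presence of DSF it stood at 72.3, 79.6, 74.5 and 78.5 CPM in LPS cells and 57.2, 51.3, 48.9 and 52.9 CPM in IL4CD40 cells. The first group lay above LPS alone (log2 0.37, SE 0.049, adjusted p = 2.21e-07, edgeR), and the second overlapped its control (log2 0.18, SE 0.087, adjusted p = 0.0868). Mast4, which overlaps Cd180 on the other strand, had means of 40.3 CPM with LPS and 265 CPM with LPS and DSF. Its part in the Cd180 counts was not tested. In experiment 2, with 1 library a condition and no test, the Cd180 rise with DSF in LPS cells was not seen again. Cd180 was at 90.28 CPM with LPS and 82.54 with LPS and DSF there. By total counts this log2 ratio was -0.44, but under a stricter count filter it was 0.026, so its sign is not settled. With IL4CD40, Cd180 was at 56.72 CPM without DSF and 68.12 with it.

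Ly86, which encodes the CD180 partner MD-1, parted from Cd180. It was at 95.5, 100, 199 and 204 CPM unstimulated, 236, 256, 255 and 238 CPM with LPS, and 79.4, 82.9, 69.1 and 74.8 CPM with IL4CD40. LPS libraries were all the highest and IL4CD40 libraries all the lowest. It rose with LPS by 0.72 (SE 0.257, adjusted p = 0.0355, edgeR) and fell with IL4CD40 by 0.91 on the log2 scale (SE 0.261, adjusted p = 0.0131). The LPS call was lost without any one LPS library (adjusted p = 0.0600 to 0.0718), without unstimulated replicate 1 or 2 (0.0509 and 0.0564) and by total counts (0.0922). Against unstimulated replicates 3 and 4 the LPS value was 0.32 and against replicates 1 and 2 it was 1.34, and the IL4CD40 values were -1.33 and -0.33. With DSF, Ly86 was at 124, 133, 124 and 135 CPM in LPS cells and 55.0, 42.9, 54.4 and 49.2 CPM in IL4CD40 cells. Both groups lay under their controls, with log2 fold changes of -0.92 (SE 0.043, adjusted p = 7.03e-16, edgeR) and -0.66 (SE 0.088, adjusted p = 5.59e-05). The Ly86 to Cd180 FPKM ratio was 1.10 ± 0.31 unstimulated, 5.15 ± 0.39 with LPS and 2.10 ± 0.036 with LPS and DSF (SD, n = 4). It was 2.17 ± 0.41 with IL4CD40 and 1.19 ± 0.14 with IL4CD40 and DSF. The unstimulated libraries gave 1.372, 1.364, 0.7648 and 0.9096. In experiment 2, with 1 library a condition and no test, the LPS rise was not seen (2.186 unstimulated and 2.261 with LPS). IL4CD40 stood above LPS there, at 3.139. With DSF the ratio was lower there too, at 0.9382 with LPS and 1.047 with IL4CD40.

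Of the nucleic acid receptors, Tlr7 rose with LPS and Tlr9 rose with LPS but fell with IL4CD40. Tlr7 was at 25.8, 30.6, 95.2 and 84.0 CPM unstimulated, 312, 320, 306 and 304 CPM with LPS, and 52.8, 53.2, 69.7 and 84.6 CPM with IL4CD40. The LPS libraries stood above all others, and the IL4CD40 libraries fell within the unstimulated range. The LPS rise was 5.28-fold (log2 2.40, SE 0.414, adjusted p = 0.000991, edgeR), and was 1.82 against unstimulated replicates 3 and 4 and 3.47 against replicates 1 and 2. The IL4CD40 difference was 0.19 (SE 0.410, adjusted p = 0.704), but 1.23 against replicates 1 and 2 (adjusted p = 0.000682) and -0.40 against replicates 3 and 4 (adjusted p = 0.0676). DSF-treated libraries held it at 222, 249, 213 and 218 CPM in LPS cells and 67.4, 64.1, 73.1 and 76.8 CPM in IL4CD40 cells. Only the LPS groups were apart, with log2 fold changes of -0.45 (SE 0.045, adjusted p = 2.35e-09) and 0.06 (SE 0.132, adjusted p = 0.735), edgeR.

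Tlr9 was at 113, 114, 144 and 134 CPM unstimulated, 224, 216, 215 and 220 CPM with LPS, and 65.6, 74.4, 89.3 and 97.5 CPM with IL4CD40. The 3 groups did not overlap. It rose by 0.79 with LPS (SE 0.090, adjusted p = 8.41e-05, edgeR) and fell with IL4CD40 (log2 -0.58, SE 0.132, adjusted p = 0.00419). With DSF it was at 148, 154, 165 and 158 CPM in LPS cells and 97.5, 102, 76.7 and 99.9 CPM in IL4CD40 cells. The LPS groups were apart (log2 -0.47, SE 0.040, adjusted p = 1.58e-10, edgeR) and the IL4CD40 groups overlapped (log2 0.15, SE 0.121, adjusted p = 0.320).

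Tlr2 was at 25.4, 28.9, 17.4 and 14.3 CPM unstimulated, 18.2, 18.4, 19.7 and 18.6 CPM with LPS, and 9.27, 9.49, 10.6 and 12.3 CPM with IL4CD40. The LPS libraries fell within the unstimulated range and the IL4CD40 libraries lay under it. It fell with IL4CD40 (log2 -0.995, SE 0.216, adjusted p = 0.00324, edgeR), and its LPS difference was -0.20 (adjusted p = 0.416), 0.27 against unstimulated replicates 3 and 4 and -0.53 against replicates 1 and 2. The IL4CD40 difference was -0.54 and -1.36 against these pairs. Libraries with DSF had it at 19.8, 20.4, 20.9 and 23.4 CPM in LPS cells, just above LPS alone (log2 0.19, SE 0.075, adjusted p = 0.0245, edgeR, but -0.016 by total counts), a call lost without LPS with DSF replicate 4 or LPS replicate 1, 2 or 4. In IL4CD40 cells with DSF it was at 12.1, 12.97, 11.5 and 12.2 CPM and overlapped the control (log2 0.17, adjusted p = 0.178).

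Myd88, the shared adaptor, was the most even of the 10 genes in unstimulated cells, at 37.3, 37.5, 38.7 and 36.8 CPM. It was at 113, 124, 119 and 116 CPM with LPS and 52.1, 49.97, 51.5 and 50.3 CPM with IL4CD40. The 3 groups did not overlap, and its unstimulated pairs were not apart. The rise was 3.14-fold with LPS (log2 1.65, SE 0.053, adjusted p = 1.05e-07, edgeR) and 0.49 on the log2 scale with IL4CD40 (SE 0.061, adjusted p = 0.000134). Under DSF it measured 92.6, 99.3, 96.3 and 103 CPM in LPS cells and 46.1, 43.9, 43.0 and 44.4 CPM in IL4CD40 cells. Both lay under their controls, with log2 fold changes of -0.25 (SE 0.043, adjusted p = 1.19e-05) and -0.26 (SE 0.053, adjusted p = 0.00118), edgeR.

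Irak3, the inhibitory IRAK, was at 38.2, 42.0, 36.0 and 32.4 CPM unstimulated, 24.5, 27.1, 27.5 and 28.8 CPM with LPS, and 15.1, 14.1, 12.2 and 12.9 CPM with IL4CD40. The 3 groups did not overlap. It fell with LPS (log2 -0.46, SE 0.090, adjusted p = 0.00192, edgeR) and 2.63-fold with IL4CD40 (log2 -1.40, SE 0.113, adjusted p = 1.37e-05). With DSF it was at 15.9, 16.9, 14.0 and 13.9 CPM in LPS cells and 10.6, 10.3, 10.5 and 11.5 CPM in IL4CD40 cells. Both groups lay under their controls, with a 1.75-fold fall in LPS cells (log2 -0.81, SE 0.082, adjusted p = 2.58e-09, edgeR) and a log2 fold change of -0.40 in IL4CD40 cells (SE 0.099, adjusted p = 0.00448).

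**Figure D2:**
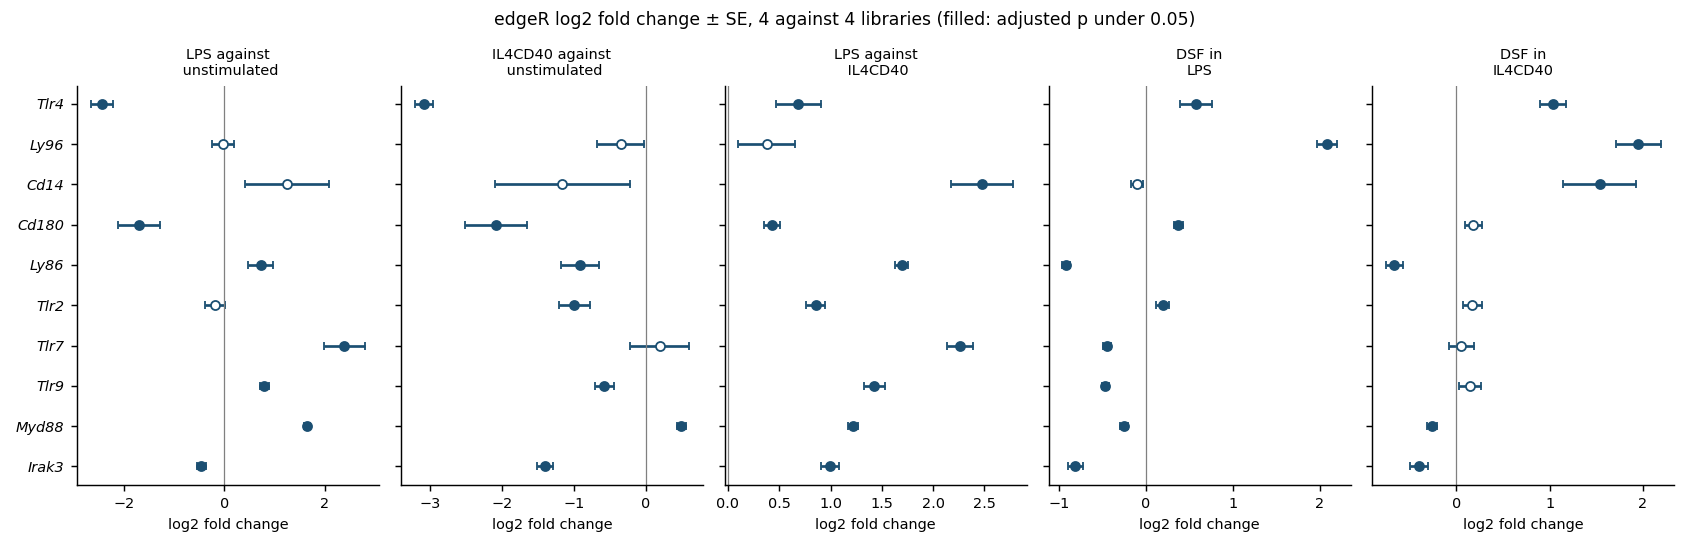
Log2 fold change of each of the 10 genes (x axis, with bars of 1 SE) in the 5 comparisons of experiment 1, with 4 libraries on each side and filled points where the adjusted p was under 0.05. Tlr4 lay at -2.46 with LPS and -3.09 with IL4CD40 against unstimulated cells, and Ly96 lay at 2.08 and 1.95 with DSF.

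Over the 10 genes, LPS against unstimulated cells gave 4 higher, 3 lower and 3 that did not pass, where 29.6% of 14477 genes tested were higher and 33.3% lower. The median of the 10 was 0.35 against -0.05 over all genes. IL4CD40 against unstimulated cells gave 1 higher (Myd88), 6 lower and 3 that did not pass, where 30.4% of 14433 genes were higher and 32.1% lower, with medians of -0.95 and -0.04. These comparisons share the unstimulated libraries. By total counts in place of TMM, the share of higher genes among those called went from 47.1% to 31.2% with LPS and from 48.6% to 38.3% with IL4CD40.

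Set directly against each other, LPS gave higher levels than IL4CD40 for 9 of the 10 genes and lower levels for 0, where 22.3% of 14078 genes were higher and 17.3% lower. At an unadjusted p under 0.05, and by DESeq2, the lower count was also 0. The median difference was 1.10 over the 10 genes and -0.01 over all genes, and the share of higher genes among those called was 56.3%, against 34.0% by total counts. The largest were Cd14 (log2 2.48, SE 0.302, adjusted p = 4.21e-05), Tlr7 (2.26, SE 0.128, adjusted p = 5.7e-08) and Ly86 (1.69, SE 0.065, adjusted p = 2.47e-09), all by edgeR. Tlr9 differed by 1.43, Myd88 by 1.22, Irak3 by 0.99, Tlr2 by 0.86, Tlr4 by 0.69 and Cd180 by 0.43. Ly96 did not pass (0.38, SE 0.278, adjusted p = 0.309, edgeR). The Tlr4 call (adjusted p = 0.0267) was lost without LPS replicate 3 or 4 or IL4CD40 replicate 2 or 3, by total counts (0.0548) and in replicates 1 and 2 alone (0.312). With all 20 libraries in 1 fit the Cd180 call was lost (adjusted p = 0.306). In experiment 2, with 1 library a condition and no test, Tlr9 was lower with LPS than with IL4CD40 (102.6 and 118.2 CPM). Tlr7 (155.7 and 145.1 CPM), Ly86 (164.4 and 143.4) and Myd88 (86.49 and 74.73) were slightly higher with LPS. Cd180 (90.28 and 56.72 CPM), Irak3 (26.85 and 18.4) and Tlr2 (8.418 and 4.913) were also higher. Tlr4 had 50 and 40 counts (2.751 and 2.184 CPM), Ly96 64 and 56 (3.521 and 3.057) and Cd14 25 and 14 (1.375 and 0.7642). The counting intervals of each of these genes overlapped between the stimuli, so their order there is not settled.

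With DSF in LPS cells, 4 of the 10 genes were higher (Tlr4, Ly96, Cd180 and Tlr2) and 5 lower (Tlr7, Tlr9, Ly86, Myd88 and Irak3), where 35.1% of 14154 genes were higher and 36.0% lower. In IL4CD40 cells 3 were higher (Tlr4, Ly96 and Cd14) and 3 lower (Ly86, Myd88 and Irak3), where 30.1% of 14275 genes were higher and 31.6% lower. With all 20 libraries in 1 fit, the calls in LPS cells were lost for Tlr7 (adjusted p = 0.168), Cd180 (0.314) and Tlr2 (0.349). In IL4CD40 cells the Irak3 call was lost in replicates 3 and 4 alone (adjusted p = 0.180). The medians were -0.18 and 0.16, against 0.00 and -0.02 over all genes. By total counts the share of higher genes among those called went from 49.4% to 34.2% and from 48.8% to 35.9%.

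The DSF effect with LPS was then tested against the DSF effect with IL4CD40 in a single fit of the 16 libraries. It was lower with LPS for 4 of the 10 genes and higher for 0, where 6.96% of 15130 genes were lower and 7.92% higher. At an unadjusted p under 0.05, and by DESeq2, the higher count was also 0. The differences were -1.66 for Cd14 (SE 0.390, adjusted p = 0.00642), -0.62 for Tlr9 (SE 0.133, adjusted p = 0.00326), -0.51 for Tlr7 (SE 0.145, adjusted p = 0.0221) and -0.42 for Irak3 (SE 0.126, adjusted p = 0.0297), all by edgeR. The Irak3 call was lost when any of 7 libraries was left out (adjusted p = 0.0503 to 0.0658): LPS with DSF replicates 3 and 4, LPS replicates 2, 3 and 4, IL4CD40 with DSF replicate 4 and IL4CD40 replicate 3. Tlr9 lost its call in replicates 3 and 4 alone (adjusted p = 0.135), and Irak3 in replicates 1 and 2 alone (0.796). Cd14 and Tlr7 lost theirs with all 20 libraries in 1 fit (0.292 and 0.453). Tlr4, Ly86 and Cd180 did not pass, with differences of -0.47, -0.26 and 0.18 (adjusted p = 0.273, 0.0923 and 0.238). Among all genes the share of higher calls was 53.2%, against 36.7% by total counts and 22.4% with all 20 libraries in 1 fit.

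**Figure D3:**
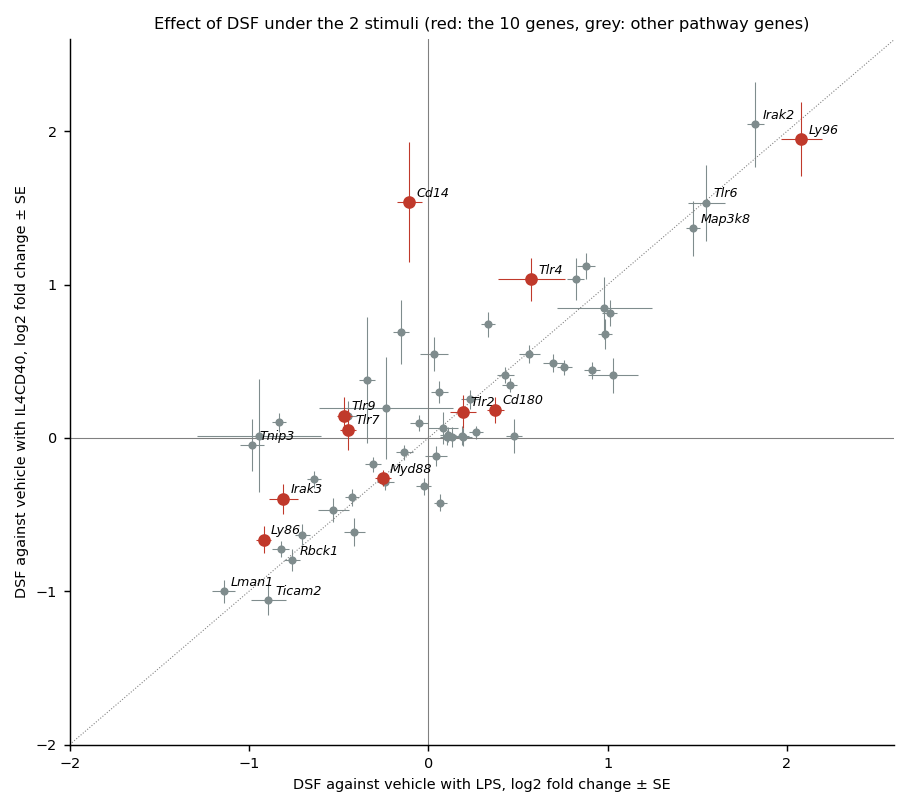
Log2 fold change with DSF in LPS cells (x axis) and in IL4CD40 cells (y axis) for the 10 genes (red) and the other pathway genes (grey), with bars of 1 SE and a dotted line of equal effects. Cd14, Tlr9, Tlr7 and Irak3 passed the test of the difference and lay above the line, and Ly96 lay near it at 2.08 and 1.95.

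The pathway around these genes was followed with 7 lists of 58 genes (other TLRs, ligand transfer and trafficking, adaptors, kinases, ubiquitin ligases, inhibitors and interferon regulatory factors). Of 54 tested against unstimulated cells, 23 were higher and 18 lower with LPS, where 29.6% of all genes tested were higher and 33.3% lower. With IL4CD40 22 were higher and 18 lower, where 30.4% and 32.1% of all genes were. Of 51 tested between the stimuli, 17 were higher and 12 lower with LPS, where 22.3% and 17.3% of all genes were. Other TLRs gave 1 higher and 5 lower of 7 tested with LPS, and 0 higher and 5 lower with IL4CD40. Among them Tlr13, a receptor for bacterial ribosomal RNA, fell with LPS (log2 -2.28, SE 0.182, adjusted p = 1.3e-05, edgeR), and Tlr12 fell by 2.43 with LPS and 3.32 with IL4CD40. Tlr11 had 81 counts over the unstimulated group and 3 to 6 in each other group. The inducible inhibitors Socs1 and Tnfaip3 (A20) rose with both stimuli, by 3.77 and 3.16 with LPS and 3.68 and 3.11 with IL4CD40. Irf7, which drives type I interferon genes, rose by 4.07 with LPS (SE 0.373, adjusted p = 2.62e-05, edgeR). Ikbke, a kinase of the interferon branch, rose by 2.48 with IL4CD40 and Dok3, an inhibitory adaptor, fell by 2.68.

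Between the stimuli, the double-stranded RNA receptor Tlr3 was at 19.5 ± 1.38 CPM with LPS and 0.443 ± 0.167 CPM with IL4CD40 (SD, n = 4), a log2 difference of 5.47 (SE 0.170, adjusted p = 5.84e-10, edgeR). Irf7 (4.57) and Trafd1 (3.16), an inhibitor of TLR signalling, were also higher with LPS. Otulin, a deubiquitinase, the adaptor Ticam1 (TRIF) and the TLR chaperone Hsp90b1 were lower with LPS, by -1.09, -0.76 and -0.69. The values of Irf7 and Tlr3 also separated the unstimulated pairs, at 24.8 and 65.0 CPM and at 0.554 and 6.72 CPM in replicates 1 and 2 and replicates 3 and 4. In experiment 2, with 1 library a condition and no test, Tlr3 had 83 counts (4.566 CPM) with LPS and 91 (4.968 CPM) with IL4CD40. Irf7 was at 212.9 and 143.1 CPM there, and Trafd1 at 147.9 and 131 CPM. Otulin (51.11 and 89.2 CPM), Ticam1 (38.9 and 47.87) and Hsp90b1 (288.1 and 376.2) were lower with LPS there too.

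DSF moved 24 of 51 tested pathway genes higher and 19 lower in LPS cells, and 20 of 50 higher and 13 lower in IL4CD40 cells. Of all genes tested, 35.1% were higher and 36.0% lower in LPS cells, and 30.1% and 31.6% in IL4CD40 cells. The kinase Irak2 rose from 63.9 ± 2.93 to 224 ± 12.1 CPM in LPS cells (log2 1.82, SE 0.048, adjusted p = 8.58e-21, edgeR) and by 2.05 in IL4CD40 cells. Map3k8 (TPL2), which acts on the ERK pathway, rose from 128 ± 2.87 to 351 ± 5.2 CPM (log2 1.48) and by 1.37. Tlr6, the partner of TLR2, rose from 5.40 ± 0.64 to 15.6 ± 0.98 CPM (log2 1.55, SE 0.105, adjusted p = 1.56e-12, edgeR) and by 1.53 in IL4CD40 cells. Lman1, a cargo receptor of the endoplasmic reticulum, fell under both stimuli (log2 -1.14 and -1.001). Tlr3 (-1.44) and the A20-binding gene Tnip3 (-0.98) fell in LPS cells, and the adaptor gene Ticam2 (-1.06) and Rbck1 (HOIL-1, -0.80) fell in IL4CD40 cells. Only the 3 largest falls per stimulus are named, so this does not show falls under 1 stimulus only. In experiment 2, without a test, these genes were lower with DSF under the other stimulus too. With LPS, Ticam2 went from 10.34 to 3.193 CPM and Rbck1 from 188.2 to 84.02. With IL4CD40, Tlr3 went from 4.968 to 0.7805 CPM and Tnip3 from 7.315 to 4.612. Ubiquitin ligases and partners gave 6 higher and 1 lower of 7 tested in LPS cells, and 3 higher and 1 lower of 7 in IL4CD40 cells. Inhibitors gave 4 higher and 4 lower of 11 in LPS cells, and 6 higher and 1 lower of 11 in IL4CD40 cells.

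In experiment 2 each condition was a single library, so there is no test and the 95% intervals of the log2 ratios cover counting error only. With LPS, Tlr4 had 50 counts against 269 unstimulated, a log2 ratio of -2.15 (-2.65 to -1.75). It was the only one of the 10 genes past 2-fold, so 0 were past it upward, where 8.62% of 14275 genes were higher by 2-fold and 9.88% lower. Tlr7 had 2830 and 2905 counts, a log2 ratio of 0.20, where experiment 1 gave 2.40. The ratios of Ly86 and Myd88 were 0.21 and 0.74, against 0.72 and 1.65 in experiment 1, and those of Irak3 and Tlr2 were -0.61 and -0.30, against -0.46 and -0.20. Cd180 (0.17) and Tlr9 (-0.27) had the opposite sign to experiment 1, as did Cd14 (-0.85, from 25 and 55 counts) and Ly96 (0.23, from 64 and 64 counts), neither of which had passed the test there. Of the pathway genes, Irf7 (-0.34) and Socs1 (-0.59) were lower in this library than in the unstimulated one, unlike in experiment 1, while Tnfaip3 was higher (2.82). With IL4CD40, Tlr4 (-2.47), Cd14 (-1.62), Irak3 (-1.16) and Tlr2 (-1.06) were past 2-fold lower and 0 of the 10 genes higher. Of all genes, 13.7% were past 2-fold lower and 10.7% higher. Ly86, Tlr9 and Cd180, called lower with IL4CD40 in experiment 1, were not past 2-fold. Ly86 was at 143.4 CPM with IL4CD40 and 141.7 unstimulated, Tlr9 at 118.2 and 124, and Cd180 at 56.72 and 80.45. The Ly86 fall was thus not seen again, and Tlr9 was only slightly lower. Myd88 was higher, as in experiment 1 (74.73 and 51.7 CPM). Tlr7 (145.1 and 135.2) and Ly96 (3.057 and 2.978), not called there, were slightly higher.

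With DSF in experiment 2, Ly96 had 64 counts with LPS and 253 with LPS and DSF (log2 ratio 2.06, 1.69 to 2.51), and the ratio with IL4CD40 was 1.85. Tlr4 (1.83 and 1.67) and Cd14 (1.52 and 1.27, from 14 to 70 counts a library) were also past 2-fold higher. The 3 genes past 2-fold lower were Tlr7, Myd88 and Ly86 with both stimuli. Tlr7 had 2830 counts with LPS and 243 with LPS and DSF (-3.43, -3.63 to -3.25), and 2658 and 233 with IL4CD40 (-3.13, -3.33 to -2.94). Myd88 went from 1572 to 370 counts with LPS (-1.98, -2.15 to -1.82), with -1.89 for IL4CD40, and Ly86 gave -1.40 and -1.32. Of all genes, 20.3% were past 2-fold higher and 19.5% lower with DSF in LPS cells, and 21.9% and 20.3% in IL4CD40 cells. In experiment 1 the same 3 genes had differences of -0.45, -0.25 and -0.92 with LPS, and of 0.06, -0.26 and -0.66 with IL4CD40. With ibrutinib, 0 of the 10 genes were past 2-fold with either stimulus, where 2.81% of all genes were higher and 2.47% lower in LPS cells, and 2.23% and 1.69% in IL4CD40 cells. Its ratios ran from -0.49 (Tlr9) to 0.76 (Cd14) with LPS and from -0.45 (Tlr9) to 0.93 (Cd14) with IL4CD40. The 12 monocyte and macrophage markers summed to 50.8 CPM in the unstimulated library, 35.4 with LPS, 42.7 with IL4CD40, 79.5 and 80.1 with DSF and 44.7 and 46.1 with ibrutinib. Other marker sums also moved with DSF: from LPS to LPS with DSF, neutrophil markers went from 0.99 to 5.32 CPM, T-cell markers from 10.7 to 19.0, erythroid markers from 30.0 to 74.4, plasma-cell markers from 185 to 366 and dendritic-cell markers from 111 to 63.4. With IL4CD40 the same sums went from 1.15 to 5.18, 7.42 to 16.5, 27.1 to 64.4, 171 to 335 and 110 to 42.9 CPM, and the part of such cells was not tested.

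**Figure D4:**
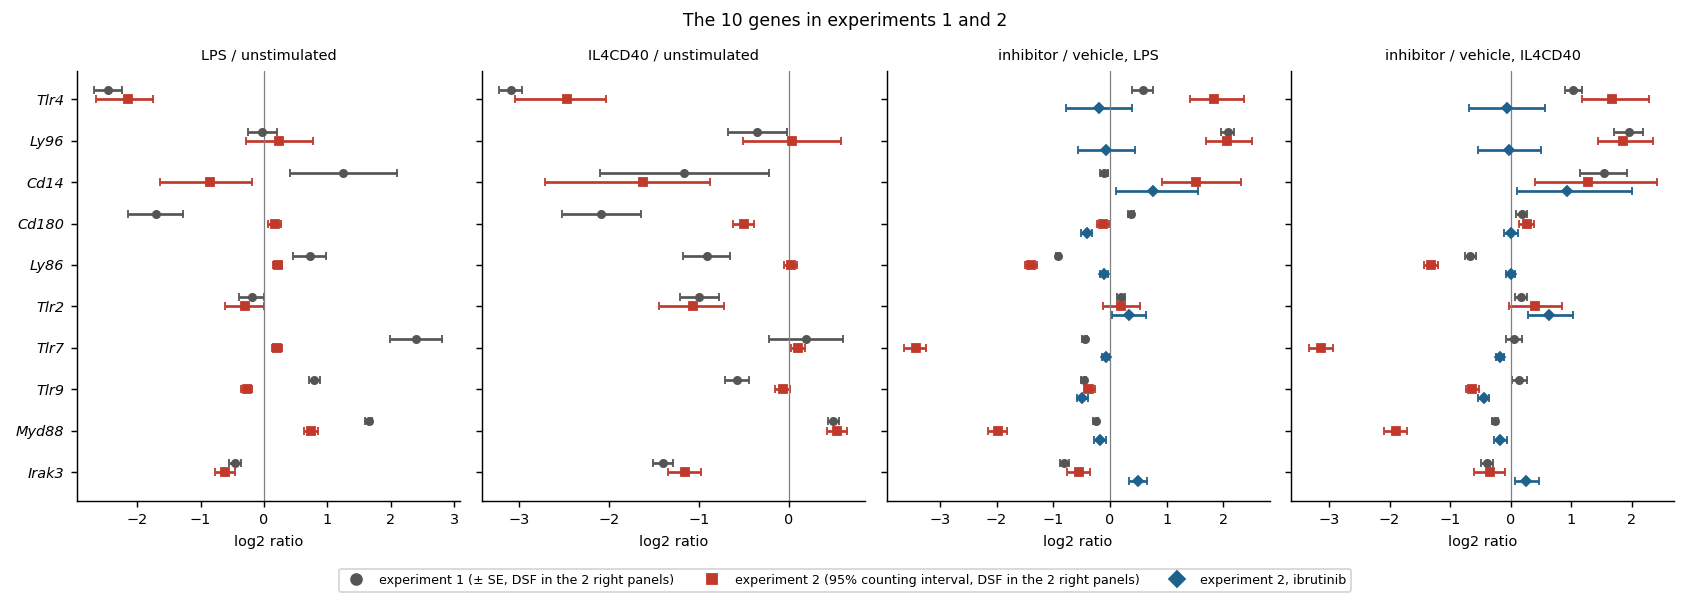
Log2 ratio (x axis) of each of the 10 genes for both stimuli against unstimulated cells and for inhibitor against vehicle, with experiment 1 as grey circles (bars of 1 SE), experiment 2 as red squares and ibrutinib in experiment 2 as blue diamonds (bars of 95% counting intervals, 1 library a condition). In the panels for DSF, Ly96 was at 2.08 and 2.06 with LPS in experiments 1 and 2, and Tlr7 at -0.45 and -3.43.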

How the data were processed

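B cells were isolated by negative selection, cultured for 3 h and sequenced by poly(A) RNA-seq in 27 libraries, 20 in experiment 1 and 7 in experiment 2. The authors trimmed reads with fastp, aligned them to mm10 with HISAT2 2.0.5 and counted them with featureCounts 1.5.0-p3, and they deposited raw counts per gene. They also deposited FPKM values, which were used only to order genes within a group and for ratios between genes. The annotation release and the use of strand are not given in the sources used here. No column of another sample was used.

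Counts were tested with edgeR 4.0.16 (TMM, filterByExpr, quasi-likelihood F-test, R 4.3.3, limma 3.58.1) over all genes of the 8 libraries compared, or 16 for the difference of the DSF effects, with Benjamini-Hochberg adjustment and a threshold of 0.05. Experiment 2 has 1 library a condition, so log2 ratios of normalised CPM (prior count 2, mean of at least 10 counts) were given. Their 95% intervals came from exact binomial limits on the 2 counts compared, scaled for normalised library size. The scripts were tested on simulated data. DESeq2 1.42.0, other size factors, filters, a replicate block, a fit of all libraries and leaving out each library were tried as alternatives. Restricting to replicates 1 and 2 or 3 and 4 was chosen after seeing the data. The 10 genes and all lists were chosen with earlier results of these data known. All 10 genes are named, and of the 58 pathway genes (57 found) the 3 with the largest change per direction among those past the threshold without overlap, and the 2 genes most alike each member. A library total is the sum of its counts, and intervals cover counting error only.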

Additional observations from a re-analysis of the deposited data

Results flagged for a closer look

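Tlr4 in IL4CD40 cells with DSF had 1 library far from the other 3: replicate 1, at 6.26 CPM, with a gap of 0.89 of the group's range. This was 1 of 50 gene and group combinations examined, and chance marks about 1 in 20.

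The DSF effect differed between LPS and IL4CD40 cells for 4 of the 10 genes, by a test of the difference itself (edgeR quasi-likelihood, log2, with LPS minus with IL4CD40). The differences were -1.66 for Cd14, -0.62 for Tlr9, -0.51 for Tlr7 and -0.42 for Irak3. In replicates 3 and 4 alone they were -1.56 for Cd14, -0.29 for Tlr9 (adjusted p = 0.135) and -0.76 for Irak3, and in replicates 1 and 2 alone -1.87, -0.97 and -0.09 (adjusted p = 0.796 for Irak3). In experiment 2, with 1 library a condition and no test, the DSF ratios with LPS and with IL4CD40 were 1.52 and 1.27 for Cd14, -0.36 and -0.63 for Tlr9, -3.43 and -3.13 for Tlr7 and -0.55 and -0.34 for Irak3, so Cd14 and Tlr9 stood in the opposite order to experiment 1.

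Of the other pathway genes named, the difference was -1.17 for Tlr3, -0.94 for Pik3ap1, an adaptor linking TLRs to phosphoinositide 3-kinase, and -0.94 for Tnip3. It was 0.62 for Tlr13, 0.49 for Tnfaip3 and 0.47 for Hsp90b1. Tlr3 rested on 5 to 12 counts a library in the IL4CD40 groups. Its call was lost with the replicate block (adjusted p = 0.052, edgeR), in replicates 1 and 2 or 3 and 4 alone (0.0678 and 0.292) and with all 20 libraries in 1 fit (0.564). That fit also ended the calls of Tlr13 (0.142), Tnfaip3 (0.171) and Tnip3 (0.494).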

How the results depend on the processing

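Over 17 alternatives for each comparison (25 for the difference of the DSF effects), calls that never changed were 6 of 7 for LPS and 7 of 7 for IL4CD40 against unstimulated cells, 7 of 9 between the stimuli, 5 of 9 and 5 of 6 for DSF in LPS and IL4CD40 cells, and 0 of 4 for the difference. The values below are log2 fold changes or counts of calls, and the cause was not tested. The effect of DSF with LPS minus that with IL4CD40 is called the difference. Total counts in place of TMM moved the median of all genes to -0.27 for LPS and -0.19 for IL4CD40 against unstimulated cells, -0.14 between the stimuli and -0.21 and -0.16 for DSF. By total counts, 15 pathway genes were higher with LPS against unstimulated cells, 20 were lower between the stimuli (4712 among all genes), DSF in LPS cells raised 2 of the 10 genes with Tlr2 at -0.016, DSF in IL4CD40 cells gave -0.096 for Tlr7 and -0.0034 for Tlr9, and the difference was -0.040 for Tlr2 and -0.051 for Myd88. With DESeq2's size factors in edgeR, Ly96 with LPS against unstimulated cells was 0.0024, and the difference was -0.0097 for Tlr2 and -0.021 for Myd88. With DESeq2 these were 0.0041, -0.0096 and -0.020, and with every gene with a count kept the difference for Myd88 was -0.0100. With all 20 libraries in 1 fit, 11 pathway genes were higher between the stimuli, DSF in LPS cells raised 2 of the 10 genes, and the difference was called lower for 2 of the 10 genes, higher for 1 and lower for 5 pathway genes and higher for 205 genes in all, with -0.056 for Tlr2 and -0.069 for Myd88. Against unstimulated replicates 3 and 4 alone, Tlr2 was 0.27 with LPS, and with IL4CD40 2 of the 10 genes were higher, with Tlr7 at -0.40 and Cd14 at 2.19. Against unstimulated replicates 1 and 2 alone, Ly96 was 0.25 with LPS and 2 of the 10 genes were higher with IL4CD40. In replicates 3 and 4 alone, Ly96 was -0.11 between the stimuli, DSF in LPS cells raised 2 of the 10 genes, DSF in IL4CD40 cells gave -0.086 for Tlr7 and -0.13 for Tlr9, and the difference was higher for 1 of the 10 genes and 11 pathway genes. In replicates 1 and 2 alone, DSF in IL4CD40 cells raised 7 of the 10 genes, and the difference was -0.20 for Tlr2, -0.52 for Ly96 and -0.040 for Myd88. Leaving out 1 library at a time gave -0.14 to 0.15 for Ly96 with LPS and -0.058 to 0.52 for Tlr7 with IL4CD40 against unstimulated cells, 2 to 4 of the 10 genes raised by DSF in LPS cells and 3 to 5 in IL4CD40 cells, -0.031 to 0.20 for Tlr7 with DSF in IL4CD40 cells, and for the difference -0.077 to 0.34 for Ly96, -0.021 to 0.032 for Myd88, -0.065 to 0.061 for Tlr2, 0 to 1 of the 10 genes higher and 7 to 13 pathway genes lower. The lowest count in LPS cells came without LPS replicate 2, and the highest counts in IL4CD40 cells and for lower pathway genes came without IL4CD40 replicate 4. Same-numbered libraries did not deviate together (correlations of -0.056 to 0.169), so the numbers were not taken as pairs. With the replicate block, 4 of the 10 genes were higher and 3 lower with LPS against unstimulated cells, and 4042 and 4367 among all genes, and Tlr3 lost its call for the difference. Total counts in experiment 2 moved the median of all genes to -0.15 with either stimulus and to -0.34 and -0.25 with DSF. Depth limits Tlr4, Ly96 and Cd14, whose lowest counts were 49, 35 and 34 in experiment 1 and 40, 56 and 14 in experiment 2.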

Other observations

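Genes overlapping Cd180, Myd88 and Irak3 on the other strand had their own levels. Mast4, which overlaps Cd180, had mean levels of 53.2 CPM unstimulated, 40.3 with LPS, 265 with LPS and DSF, 39.3 with IL4CD40 and 150 with IL4CD40 and DSF. Acaa1a, which overlaps Myd88, went from 70.6 CPM unstimulated to 42.6 and 23.4 with LPS without and with DSF, and 25.7 and 18.8 with IL4CD40. Tmbim4, which overlaps Irak3, was at 34.7, 28.1 and 37.2 CPM in unstimulated, LPS and LPS with DSF cells, and 25.6 and 34.5 in the IL4CD40 groups. Whether reads of these genes were shared was not tested.

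The genes whose levels followed each member most closely over the 20 libraries of experiment 1 were found by Pearson's r over 15575 genes, as a description only, since all points share the group structure. They were Susd3 (r = 0.981) and Rassf3 for Tlr4, Smc5 (0.974) and Deaf1 for Ly96, Clec4d (0.962) and Fyn for Cd14, Rhobtb2 (0.980) and Cd37 for Cd180, and Sfxn2 (0.979) and Ogfrl1 for Ly86. They were Rnd3 (0.969) and Ext1 for Tlr2, Gm4070 (0.982) and Nlrc5 for Tlr7, Cybb (0.975) and Tnfsf10 for Tlr9, Ubald2 (0.986) and March5 for Myd88, and Stk24 (0.988) and Exoc2 for Irak3.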
